A study of Homo sapiens with 6 samples.

Results

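Chromosomes are copied once per cell cycle by a set of proteins that act in a fixed order. The origin recognition complex marks the start sites, CDC6 and CDT1 load the MCM2 to MCM7 helicase ring onto DNA in G1, kinases and firing factors switch the ring on in S phase, and polymerases, a sliding clamp and the enzymes of the lagging strand then copy the DNA from a supply of deoxynucleotides. Transcription of many of these genes peaks around the G1/S transition under E2F factors, so their mRNA levels are widely read as a sign of proliferation.

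The genes examined here were 59 named genes of this pathway, out of 63677 gene identifiers in the count table. They were chosen by symbol, though with earlier results of these data known. All 59 were found, and 58 had enough counts to be tested among 15099 genes. They were grouped by step into origin recognition (6 tested genes), the helicase and its loaders (11), firing and fork factors (14), polymerases (10), the clamp and its loader (6), lagging strand and single-strand binding proteins (6) and nucleotide supply (5). The remaining member, FEN1, the flap endonuclease of the lagging strand, had 9, 12 and 7 reads in the control libraries and 8, 5 and 6 reads in the siRBM3 libraries, 47 in all, where the tested members had from 848 to 36976 reads over the 6 libraries. It was not tested, its level here is uncertain, and whether the counting lost reads of this gene was not tested either.

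The RNA came from T24, a human cell line established from a grade 3 bladder carcinoma, and all libraries derive from this line. Cells received siRNA at 25 nM with Lipofectamine for 4.5 h, either a pool directed against RBM3, which encodes an RNA-binding protein (siRBM3, 3 libraries), or a non-targeting siRNA (control, 3 libraries), and were left overnight in full medium before harvest. Control libraries are numbered 1, 3 and 5 in the labels and siRBM3 libraries 3, 4 and 5, and values below are given in that order. Polyadenylated RNA was sequenced in single-end reads of stranded libraries and the deposited values are read counts per gene. No source used here says that the replicates were separate cultures, so p-values measure the spread between these samples, which may be technical.

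Levels are given in CPM (counts-per-million, with library sizes scaled by the TMM factors of edgeR), and fold changes are log2 ratios of siRBM3 to control from the edgeR quasi-likelihood fit over all tested genes. The silenced gene was lower in the cells that received its siRNA, with 225, 368 and 301 CPM of RBM3 in control and 54.1, 90.1 and 58.4 CPM in siRBM3 libraries (log2 fold change -2.14 ± 0.24 SE, edgeR FDR 0.0822 by Benjamini-Hochberg adjustment, DESeq2 FDR 3.87e-14). The libraries held between 23603992 and 45098612 counts. The deepest, siRBM3 replicate 3, stood apart by a mitochondrial share of 9.4% of counts against 1.63% to 4.15% in the other 5, and by 15.7% of counts in its 20 most abundant genes against 8.91% to 11.1%. Keratin genes KRT7 (2350 to 3240 CPM), KRT8, KRT18 and KRT19 were abundant in every library, as were CD44 (1070 to 1300 CPM) and PPARG (133 to 149 CPM). Lower levels were found for GATA3 (9.31 to 14.3 CPM) and EPCAM (4.9 to 6.87 CPM). Of the uroplakins, the barrier proteins of differentiated urothelium, UPK2 lay at 1.13 to 1.86 CPM, and UPK1A, UPK1B and UPK3A at or below 0.339 CPM. The epithelial cadherin gene CDH1 stayed at or below 0.724 CPM, and KRT5, KRT14 and TP63 at or below 0.655 CPM. Markers of blood, endothelial and liver cells stayed at or below 0.689 CPM.

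All 58 tested replication genes had a negative log2 fold change, where 51.5% of all tested genes did and 48.5% had a positive one. Their median log2 fold change was -0.37, against -0.01 over all tested genes, with quartiles of -0.55 and -0.21 and a range from -0.88 (MCM3, a subunit of the helicase ring) to -0.01 (RFC1, the large subunit of the clamp loader). None of the 58 passed the thresholds of the study, a fold of 1.5 with an FDR below 0.01, in the edgeR test. In that test 0.0% of all tested genes passed, and the silenced gene RBM3 did not pass either (edgeR FDR 0.0822). The study applied these thresholds to DESeq2 results. At an edgeR FDR below 0.1, 0 of the 58 passed (0.55% of all tested genes). At an unadjusted edgeR p below 0.05, 17 of the 58 were lower, against a background of 6.58%, and 0 were higher, against 6.56%. DESeq2 called 1 of them lower at the thresholds of the study, CDC45 (FDR 0.00966), with 0.574% of 13068 genes called lower and 0.643% called higher. In 17 of the 58 all siRBM3 libraries lay under all control libraries, which held for 9.93% of all tested genes, and in 0 of them did every siRBM3 library lie above, which held for 9.98%. With 3 libraries against 3, an exact two-sided permutation test of any single gene cannot give a p below 0.1. Genes of the helicase ring and of origin firing were singled out in the study from these same libraries, so their counts are not independent evidence of a direction. In RNA from whole cultures, fewer cells in a phase of the cycle and less RNA per cell cannot be told apart.

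**Figure D1:**
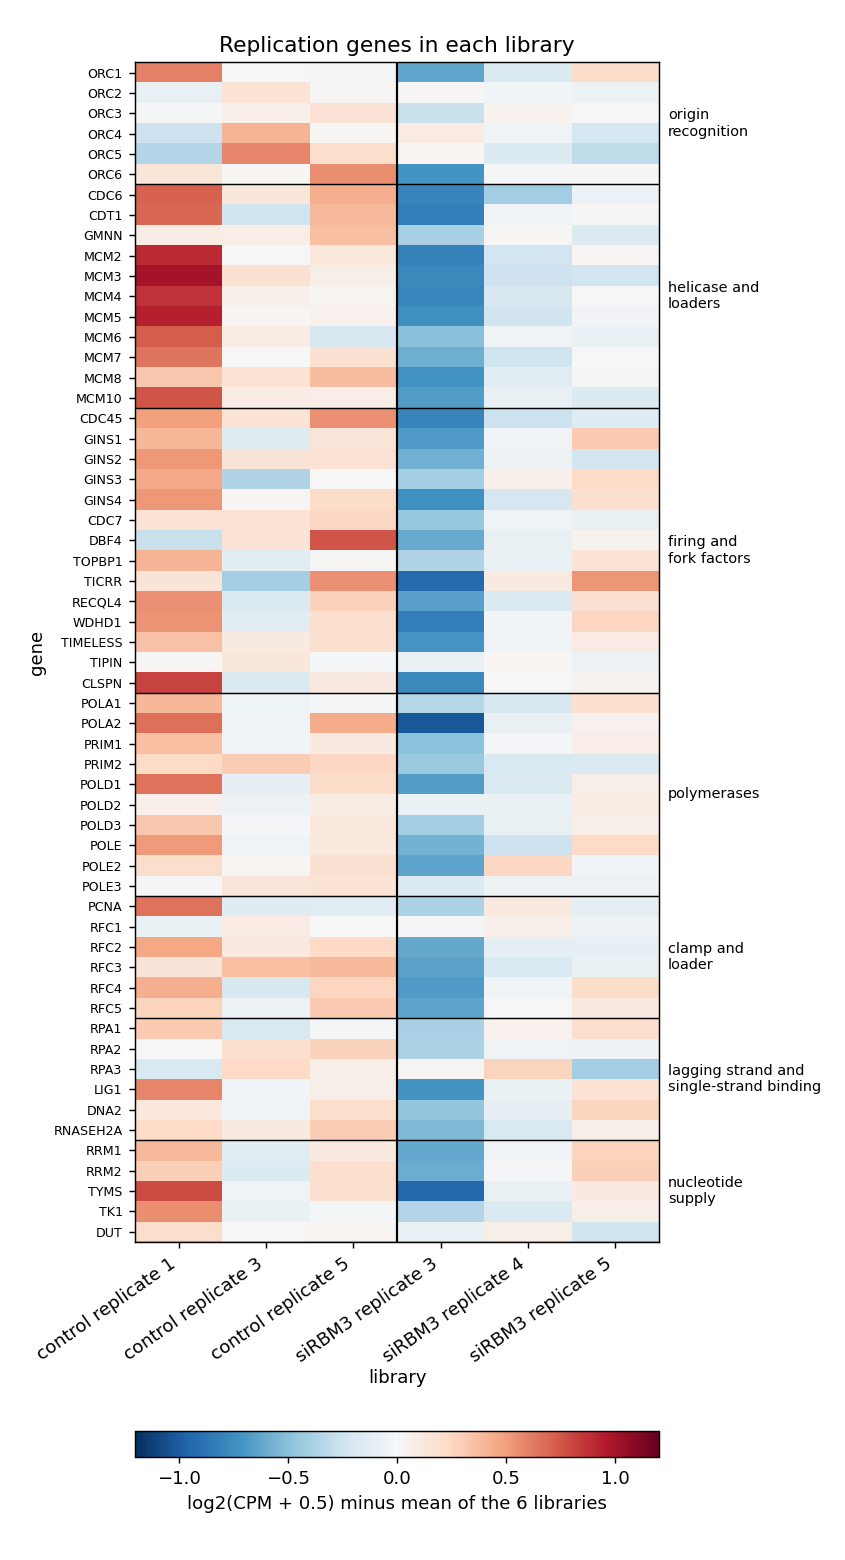
Level of each of the 58 tested replication genes (vertical axis, grouped by step) in each of the 6 libraries (horizontal axis), as log2(CPM + 0.5) minus the mean of that gene over the 6 libraries, with red for higher and blue for lower. The darkest blue is found in siRBM3 replicate 3, the lowest library for 52 of the 58 genes, and the darkest red in control replicate 1, the highest for 34.

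The libraries at the extremes were the same for most of these genes. In 52 of 58 the lowest library was siRBM3 replicate 3, and in 34 the highest was control replicate 1. How often each library was the extreme among all tested genes was not computed, here or for the lists below. A score per library, the median over the 58 genes of the log2 level relative to the mean of the 6 libraries, was 0.39, 0.01 and 0.17 in the control libraries and -0.60, -0.07 and 0.02 in the siRBM3 libraries. By this score siRBM3 replicate 5 lay slightly above control replicate 3, so that the groups overlapped. Without siRBM3 replicate 3 the median log2 fold change was -0.22, with 54 genes lower, and 8 of them at p below 0.05, where 5.35% of all genes were lower at that p. Without control replicate 1 it was -0.25, with 55 lower, and 15 at p below 0.05, where 8.64% of all genes were. Without both libraries it was -0.11, with 41 genes lower and 17 higher, and 10 were lower at p below 0.05. Those 10 were ORC4, ORC5, CDC6, MCM3, MCM8, CDC45, DBF4, PRIM2, RFC3 and RPA2, where 9.93% of all genes were lower at that p in the same comparison. This pair was chosen from the levels of replication genes in earlier results, as the highest control and the lowest siRBM3 library for most members, so leaving both out makes the difference smaller by construction and is given only as a description. Control replicate 1 had a depth within the range of the other libraries and the lowest mitochondrial share, 1.63%. The part that the mitochondrial share of siRBM3 replicate 3 has in these values was not tested.

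**Figure D2:**
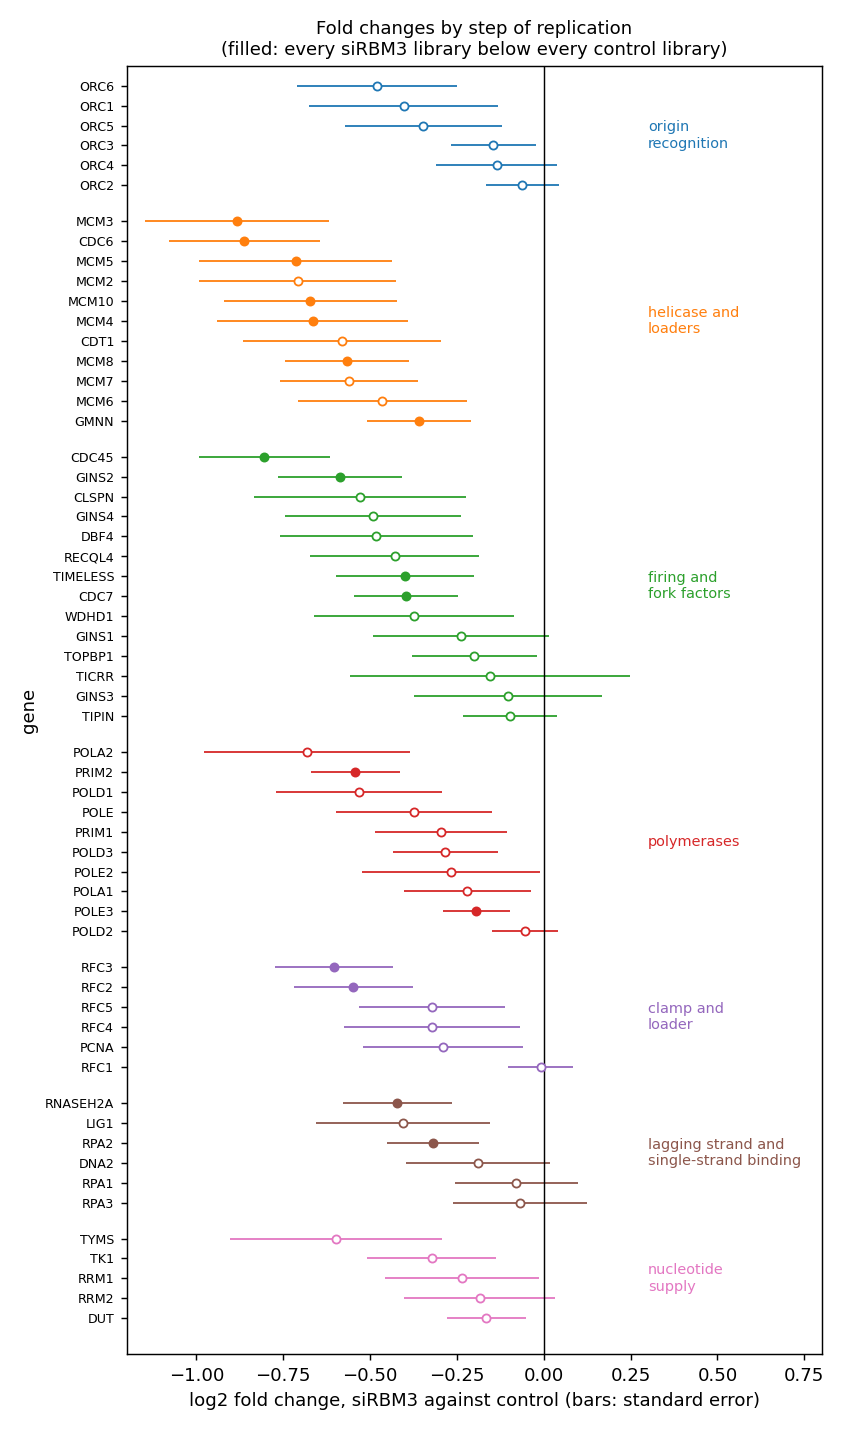
Log2 fold change of siRBM3 against control (horizontal axis) for each tested replication gene (vertical axis), coloured by step, with bars for the standard error of the edgeR fit and filled circles where all siRBM3 libraries lay under all control libraries. All 58 points lie left of 0, and 7 of the 17 filled circles belong to the helicase and its loaders.

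Counts by step stand beside the shares of all tested genes, 6.58% lower at p below 0.05 and 9.93% below control in every library. Origin recognition showed small differences. Its 6 genes encode the subunits of the complex that binds origins and recruits the loaders, and their median log2 fold change was -0.25, with 0 at p below 0.05 and 0 without overlap between groups. ORC6, the subunit with the largest difference, measured 22.4, 20.5 and 30.1 CPM in control and 12.2, 19.9 and 20.5 CPM in siRBM3 libraries. Control replicate 3 and siRBM3 replicate 5 were about equal, and siRBM3 replicate 3 stood well below the rest (log2 fold change -0.48 ± 0.23 SE). ORC5, another subunit of the core, measured 18.8, 36.4 and 27.9 CPM in control and 24.4, 21.4 and 19.4 CPM in siRBM3 libraries. For ORC5 the lowest library of all was control replicate 1, the reverse of the pattern seen in most of the pathway, and without that library and siRBM3 replicate 3 it was among the 10 genes listed above. ORC2 (-0.06), ORC4 (-0.14) and ORC3 (-0.15) differed least, while ORC1, the largest subunit, had a log2 fold change of -0.40. The median of the step was -0.23 without both extreme libraries.

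The helicase and its loaders held the largest differences. Their median log2 fold change was -0.67, and 9 of the 11 genes had an unadjusted p below 0.05. In CDC6, GMNN, MCM3, MCM4, MCM5, MCM8 and MCM10 all siRBM3 libraries lay under all control libraries. CDC6 (chromosome 17, 38444131 to 38460909 on GRCh37), the ATPase that places the ring on DNA, measured 35.6, 23.8 and 29.5 CPM in control and 12.3, 16.1 and 20.6 CPM in siRBM3 libraries. The lowest control library was above the highest siRBM3 library, and the log2 fold change was -0.86 ± 0.22 SE (edgeR FDR 0.175 by Benjamini-Hochberg adjustment). The partner of CDC6 in loading, CDT1, had a log2 fold change of -0.58 with overlapping groups, and GMNN, which encodes the inhibitor of CDT1, one of -0.36.

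The ring itself was lower in each of its subunits. MCM3 measured 102, 58.0 and 53.6 CPM in control and 29.8, 43.0 and 43.5 CPM in siRBM3 libraries, a log2 fold change of -0.88 ± 0.27 SE without overlap. MCM5 measured 164, 87.3 and 89.1 CPM in control and 51.3, 72.6 and 83.6 CPM in siRBM3 libraries (-0.71 ± 0.28 SE), also without overlap. For both, control replicate 1 was far above the other control libraries, and siRBM3 replicate 3 was the lowest.

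MCM4 measured 161, 91.7 and 90.2 CPM in control and 51.1, 77.1 and 88.2 CPM in siRBM3 libraries (-0.67 ± 0.27 SE), so that siRBM3 replicate 5 was just below the lowest control library. MCM2 measured 127, 68.1 and 74.3 CPM in control and 38.7, 58.1 and 68.6 CPM in siRBM3 libraries (-0.71 ± 0.28 SE), with siRBM3 replicate 5 just above control replicate 3. MCM4 has the same order of libraries as MCM3, while in MCM2 the groups overlap and control replicate 3 is the lowest of the control libraries. MCM7 measured 203, 130 and 147 CPM in control and 86.4, 110 and 130 CPM in siRBM3 libraries (-0.56 ± 0.20 SE). MCM6 measured 52.3, 33.3 and 27.5 CPM in control and 22.0, 30.5 and 29.7 CPM in siRBM3 libraries (-0.46 ± 0.24 SE). MCM6 was the ring subunit with the smallest difference, since control replicate 5 lay below siRBM3 replicates 4 and 5. The score of the 6 ring genes was 0.88 in control replicate 1 against 0.04 and 0.06 in the other control libraries.

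Outside the ring, MCM8, a relative of the ring subunits that works in homologous recombination, measured 54.0, 48.6 and 55.8 CPM in control and 25.8, 39.0 and 42.4 CPM in siRBM3 libraries. Its control libraries lay close together, all above the siRBM3 libraries, and the log2 fold change was -0.57 ± 0.18 SE (edgeR FDR 0.25 by Benjamini-Hochberg adjustment). Annotated exons of other genes cover 33.3% of its exon bases. MCM10, which helps to activate the loaded helicase, had a log2 fold change of -0.67 with means of 12.1 ± 3.59 CPM in control and 7.60 ± 1.64 CPM in siRBM3 libraries (SD, n = 3). For the step as a whole the median was -0.37 without control replicate 1, -0.47 without siRBM3 replicate 3 and -0.21 without both.

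Firing and fork factors had a median log2 fold change of -0.40, and 3 of the 14 genes had a p below 0.05. CDC45 (chromosome 22, 19466980 to 19508135 on GRCh37), which joins the MCM ring and GINS to form the active helicase, measured 40.9, 32.5 and 42.7 CPM in control and 16.6, 24.2 and 25.9 CPM in siRBM3 libraries. All siRBM3 libraries were below all control libraries, with a log2 fold change of -0.80 ± 0.19 SE (edgeR FDR 0.157 by Benjamini-Hochberg adjustment). GINS2, a subunit of the GINS complex, measured 24.6, 19.0 and 19.2 CPM in control and 11.2, 16.2 and 14.5 CPM in siRBM3 libraries (-0.59 ± 0.18 SE), again without overlap. The 4 GINS subunits did not differ to the same degree, since GINS4 had a log2 fold change of -0.49, GINS1 of -0.24 and GINS3 of -0.10, each with overlapping groups. Whether the subunits differed from one another was not tested.

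CDC7, the kinase that phosphorylates the loaded ring, measured 17.1, 17.2 and 18.1 CPM in control and 10.9, 14.7 and 14.2 CPM in siRBM3 libraries (-0.40 ± 0.15 SE). The control libraries differed by about 1 CPM and all lay above the siRBM3 libraries. Its activating subunit DBF4 had a log2 fold change of -0.48 ± 0.28 SE, with control replicate 1 below siRBM3 replicates 4 and 5. TIMELESS, a fork protection protein, was without overlap at -0.40, and its partner TIPIN had one of the smallest differences of the pathway, at -0.10. The firing factors TOPBP1 (-0.20) and TICRR (-0.16) had overlapping groups, as had RECQL4 (-0.43), WDHD1 (-0.37) and the checkpoint adaptor CLSPN (-0.53). Without both extreme libraries, the median of the step was -0.07.

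Among the genes of the polymerases the median log2 fold change was -0.29, with 1 of 10 at p below 0.05, near the 6.58% of all tested genes. PRIM2 (chromosome 6, 57179603 to 57513376 on GRCh37), the large subunit of the primase that starts each new strand, measured 22.9, 24.0 and 23.0 CPM in control and 14.0, 17.0 and 17.1 CPM in siRBM3 libraries. Its control libraries spanned about 1 CPM and its siRBM3 libraries about 3 CPM, with a gap between them, and the log2 fold change was -0.54 ± 0.13 SE (edgeR FDR 0.157 by Benjamini-Hochberg adjustment). The exons of PRIM2 share 18.3% of their bases with other annotated genes, among them the related PRIM2BP on the same strand, so its counts are uncertain. POLA2, the accessory subunit of polymerase alpha, measured 43.1, 26.3 and 37.1 CPM in control and 13.1, 25.5 and 28.1 CPM in siRBM3 libraries (-0.68 ± 0.30 SE). POLD1, the catalytic subunit of polymerase delta, measured 57.1, 33.8 and 42.3 CPM in control and 22.5, 31.9 and 38.0 CPM in siRBM3 libraries (-0.53 ± 0.24 SE). In both, siRBM3 replicate 5 was above control replicate 3.

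The other subunits of polymerase delta differed less, with log2 fold changes of -0.05 for POLD2 and -0.28 for POLD3. Of polymerase epsilon, the leading strand enzyme, POLE was at -0.37, POLE2 at -0.27 and POLE3 at -0.19, the last without overlap between groups. POLA1 and PRIM1, the catalytic subunits of polymerase alpha and primase, were at -0.22 and -0.30. The median of the step was -0.04 without both extreme libraries.

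The clamp and its loader had a median log2 fold change of -0.32. RFC3 (chromosome 13, 34392206 to 34540695 on GRCh37), a small subunit of the loader, measured 22.9, 26.5 and 27.1 CPM in control and 13.0, 18.1 and 19.4 CPM in siRBM3 libraries. RFC2, another small subunit, measured 36.7, 28.8 and 31.3 CPM in control and 17.1, 24.5 and 24.7 CPM in siRBM3 libraries. Neither gene had overlapping groups, and the log2 fold changes were -0.60 ± 0.17 SE and -0.55 ± 0.17 SE. RFC4 and RFC5 were both at -0.32 with overlap. PCNA, the sliding clamp that tethers the polymerases, was at -0.29 ± 0.23 SE, and its control mean of 106 ± 35.9 CPM (SD, n = 3) rested on 148 CPM in control replicate 1 against 84.9 and 86.1 CPM in the other control libraries. RFC1 was nearly level between groups, at 82.6 ± 5.22 CPM in control and 82.1 ± 3.56 CPM in siRBM3 libraries (SD, n = 3). The median of the step was -0.06 without both extreme libraries.

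For the lagging strand and single-strand binding proteins the median log2 fold change was -0.25, with 2 of 6 genes at p below 0.05, RNASEH2A and RPA2. RNASEH2A, the catalytic subunit of the nuclease that removes ribonucleotides from DNA, measured 58.3, 52.9 and 60.9 CPM in control and 33.7, 43.3 and 51.7 CPM in siRBM3 libraries (-0.42 ± 0.16 SE). The groups did not overlap, but 53.3% of its exon bases lie under other annotated genes, so that its counts are uncertain. RPA2, the middle subunit of the protein that coats single-stranded DNA, measured 39.2, 45.0 and 47.7 CPM in control and 30.1, 38.1 and 37.6 CPM in siRBM3 libraries (-0.32 ± 0.13 SE). It too was without overlap, in contrast to the other subunits RPA1 (-0.08) and RPA3 (-0.07). LIG1, the ligase that joins the fragments of the lagging strand, measured 52.8, 34.4 and 37.0 CPM in control and 21.1, 33.1 and 39.8 CPM in siRBM3 libraries (-0.40 ± 0.25 SE), with siRBM3 replicate 5 above 2 of the control libraries. The nuclease and helicase DNA2 was at -0.19, and the step median was -0.10 without both extreme libraries.

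Nucleotide supply had a median log2 fold change of -0.23, with 0 of 5 genes at p below 0.05 and 0 without overlap. TYMS, which makes thymidylate, measured 119, 66.3 and 78.7 CPM in control and 35.7, 64.8 and 74.3 CPM in siRBM3 libraries (-0.60 ± 0.31 SE). TK1, the thymidine kinase of the salvage route, measured 233, 150 and 157 CPM in control and 124, 140 and 167 CPM in siRBM3 libraries (-0.32 ± 0.19 SE). In both, siRBM3 replicate 5 lay above control replicate 3, and exons of other genes cover 47.9% of the exon bases of TYMS. The ribonucleotide reductase genes RRM1 (-0.23) and RRM2 (-0.18) and the dUTPase gene DUT (-0.17) had overlapping groups. Without both extreme libraries the step median was 0.005.

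**Figure D3:**
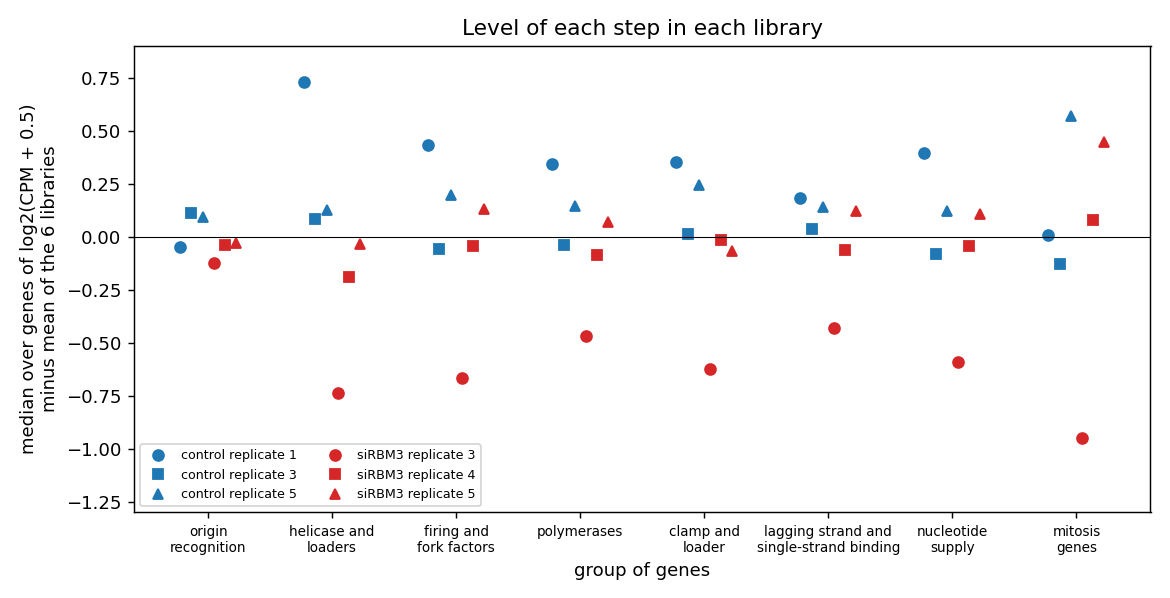
Score of each step in each library, the median over its genes of log2(CPM + 0.5) minus the mean of the 6 libraries, beside the same score for the mitosis genes, with control libraries in blue, siRBM3 libraries in red and a marker shape for each replicate. The helicase score runs from 0.73 in control replicate 1 to -0.74 in siRBM3 replicate 3, while the origin recognition score stays between -0.13 and 0.11.

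The steps differed in how far the libraries of a group lay from one another. The helicase score was 0.73, 0.08 and 0.13 in control and -0.74, -0.19 and -0.04 in siRBM3 libraries, so the groups did not overlap. Clamp and loader genes were also without overlap, at 0.35, 0.01 and 0.25 in control and -0.62, -0.01 and -0.07 in siRBM3 libraries. In the scores of the firing factors, polymerases, lagging strand proteins and nucleotide supply, siRBM3 replicate 5 lay above control replicate 3. Origin recognition overlapped through control replicate 1, which at -0.05 was below siRBM3 replicates 4 and 5. No test was made of these differences between steps.

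**Figure D4:**
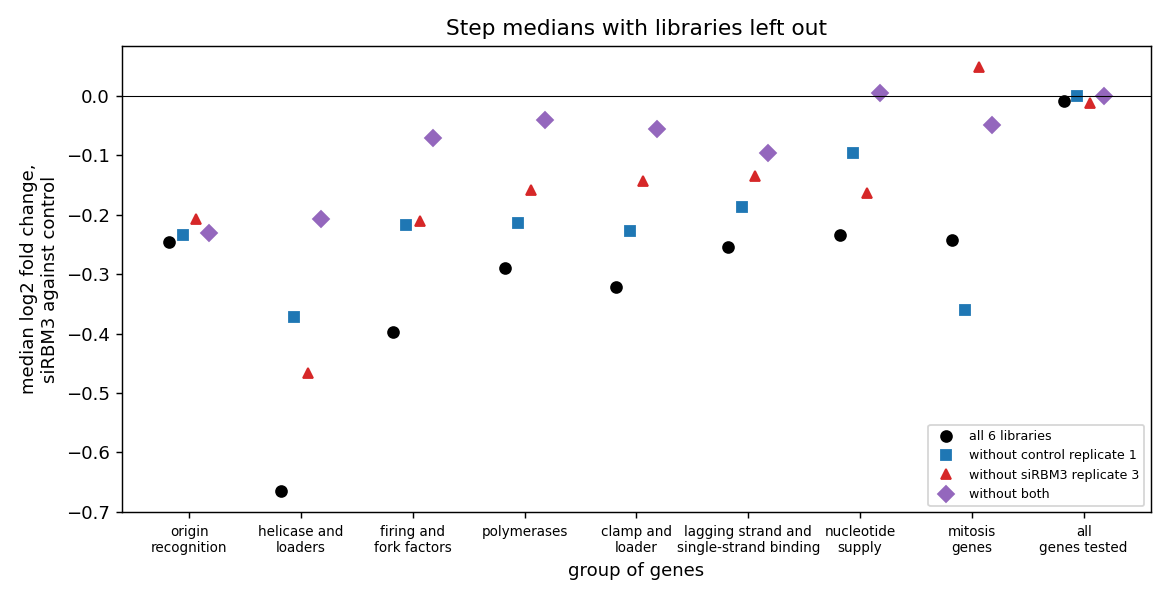
Median log2 fold change (vertical axis) of each step, of the mitosis genes and of all tested genes (horizontal axis), with all 6 libraries, without control replicate 1, without siRBM3 replicate 3 and without both. The helicase median moves from -0.67 to -0.21 when both are left out, and the origin recognition median from -0.25 to -0.23.

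Leaving out each of the 6 libraries in turn, 49 of the 58 genes kept a negative log2 fold change in every fit, and 8 kept an unadjusted edgeR p below 0.05 in every fit. These 8 were CDC6, MCM3, MCM8, CDC45, GINS2, PRIM2, RFC2 and RFC3, and 6 of them, all but GINS2 and RFC2, were also at that p without both extreme libraries. The share of all tested genes that held in every fit was not computed, so these counts have no background. The fits share most of their libraries and are not independent of one another. The 12 members with over 10% of their exon bases under other genes had a median log2 fold change of -0.46, and the other 46 had -0.37, with 13 at p below 0.05 and 14 without overlap.

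Relative to the combined length of all annotated exons of a gene, the pathway spanned a wide range of levels in control cells. This length can exceed that of a transcript, so levels per kb are approximate. The median over the 58 genes was 7.84 CPM per kb of exon, from 0.971 for TICRR to 97.5 for TK1. Within the ring, MCM7 was the most abundant at 32.3 CPM per kb and MCM6 the least at 9.11 CPM per kb. By step, nucleotide supply had the highest median, 36.4 CPM per kb, and firing and fork factors the lowest, 4.42 CPM per kb.

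The promoters of the pathway are shown because many of its members are textbook E2F targets. The activity of E2F factors was not measured, and their part in the differences was not tested. In RefSeq windows from 250 bases before to 50 bases after the start (table of GRCh38.p14), matched for 51 of the 59 genes, 4 words of the E2F site were searched on both strands, where neighbouring matches may overlap. They were TTCCCGC and, with another centre, TTCGCGC, beside the forms with a G after the leading bases, TTGCCGC and, as the last, TTGGCGC. At least 1 word was present for 38 of the 51 (74.5%), against 24.5% of the 10780 tested genes with a window and 15.3% of all genes in the table. The word CCAAT was present for 58.8% of the replication genes, against 42.9% of tested genes, and TTTGAA, the core of the element of G2/M genes, for 7.84% against 13.8%. In mitosis genes the shares were 25.0% for the E2F words, 75% for CCAAT and 70.0% for TTTGAA. A word is a match of letters and not a shown binding site. Tested members with an E2F word (38) had a median log2 fold change of -0.37, and those without (12) one of -0.45. Whether these medians differ was not tested. MCM4, MCM5, GINS4, RECQL4, POLD3, RPA2, RPA3 and DNA2 had no window and are in neither group. One stretch is given for each step, from the gene with the smallest p that has a word, and for MCM3, added after its values were seen; E2F words are in capitals, and positions were found on GRCh37.

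ORC1, chr1:52870096-52870195, minus strand: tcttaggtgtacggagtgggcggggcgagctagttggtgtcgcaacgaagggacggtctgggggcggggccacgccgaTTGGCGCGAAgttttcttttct
CDC6, chr17:38444128-38444157, plus strand: gccattcggatTTGGCGCgagcgcggctgg
MCM3, chr6:52149545-52149574, minus strand: aacctttggtgGCGGGAAgagttcggaagt
GINS2, chr16:85722561-85722660, minus strand: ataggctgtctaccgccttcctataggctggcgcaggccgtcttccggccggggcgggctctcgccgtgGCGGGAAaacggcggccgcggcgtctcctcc
POLA2, chr11:65029370-65029399, plus strand: tggctcccggtTTCGCGCatgcgtgcactg
RFC3, chr13:34392220-34392249, plus strand: atttggagctcGCGGGAAaacttgtctctg
LIG1, chr19:48673696-48673725, minus strand: cttcaccccttTTCCCGCcctcctcccatt
TYMS, chr18:657553-657652, plus strand: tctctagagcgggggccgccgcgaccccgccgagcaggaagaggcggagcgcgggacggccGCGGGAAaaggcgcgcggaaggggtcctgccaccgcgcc

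In these stretches GCGGGAA is TTCCCGC read on the other strand. The ORC1 promoter holds 2 overlapping words, read on opposite strands, that form the run TTGGCGCGAA. The word of CDC6 begins at base 9 after the annotated start and that of GINS2 at base -31, before it. ORC6, CDC45, PRIM2 and RNASEH2A, the genes with the smallest p of their steps, are not among the sequences because their windows hold none of the words. RPA2, next after RNASEH2A in its step, had no window.

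Further replication genes outside the 59 were less uniformly low. Of 44 tested genes, 35 had a negative log2 fold change and 9 a positive one, with a median of -0.21. At p below 0.05, 7 were lower and 1 higher, against 6.58% and 6.56% of all tested genes. In 12 every siRBM3 library lay under every control library, and in 1 every one lay above, against 9.93% and 9.98%. EXO1, a nuclease of mismatch repair and resection, measured 14.4, 9.98 and 13.1 CPM in control and 5.65, 9.13 and 8.80 CPM in siRBM3 libraries (-0.68 ± 0.23 SE). RIF1, which restrains origin firing and sets replication timing, measured 45.9, 47.4 and 40.1 CPM in control and 58.6, 55.4 and 56.9 CPM in siRBM3 libraries (0.36 ± 0.10 SE). It was the gene higher at p below 0.05, and each siRBM3 library was above each control library. DCTPP1, which clears modified nucleotides, was at -0.33 and MCMBP, a binding partner of the MCM subunits, at -0.31, both without overlap. In 25 of the 44 genes the lowest library was siRBM3 replicate 3.

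Genes of mitosis, whose mRNA peaks after S phase, had another pattern over the libraries. Of 24 tested, 22 had a negative log2 fold change with a median of -0.24. At p below 0.05, 0 were lower, and 0 lay below control in every library, against 6.58% and 9.93% of all tested genes. A count of 0 in a list of 24 is not far from these shares. CDK1, the kinase that drives entry into mitosis, measured 60.0, 82.7 and 137 CPM in control and 40.5, 68.5 and 80.8 CPM in siRBM3 libraries. CCNB2, one of its cyclins, measured 65.0, 76.9 and 85.2 CPM in control and 34.8, 61.7 and 79.8 CPM in siRBM3 libraries. In all 24 genes siRBM3 replicate 3 was the lowest library, and the highest control library was replicate 5, not replicate 1 as in most replication genes. The mitosis score was 0.01, -0.13 and 0.57 in control and -0.95, 0.08 and 0.45 in siRBM3 libraries, so that the groups overlapped. The median log2 fold change of these genes moved both ways with the libraries left out. It was 0.05 without siRBM3 replicate 3 and 0.01 without control replicate 5, but -0.36 without control replicate 1, -0.35 without control replicate 3 and -0.53 without siRBM3 replicate 5. The replication and mitosis genes were thus both lowest in siRBM3 replicate 3, the library with the mitochondrial share of 9.4%, whose part in these differences was not tested.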

How the data were processed

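The values deposited by the authors are raw counts of reads per Ensembl gene in 6 T24 libraries. The authors trimmed reads with BBDuk, aligned them with STAR to hg19/GRCh37, marked duplicates with Picard and counted with featureCounts of Subread. The annotation release, the strand setting and the use of marked duplicates in counting were details not given in the sources used here. Groups came from the sample labels.

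Symbols, positions and exon overlaps came from GENCODE on GRCh37 (55665 identifiers matched). UHRF1 of the further replication genes and PECAM1 of the markers were not matched. Counts were filtered with filterByExpr (minimum count 10, minimum total 15), scaled by TMM and fitted with the robust quasi-likelihood test of edgeR 4.0.16, with Benjamini-Hochberg adjustment over 15099 genes. DESeq2 1.42.0, without a prior on fold changes, and limma-voom (limma 3.58.1) were alternatives, with other normalizations and filters, a replicate block and libraries left out. R 4.3.3 and Python 3.11.15 were used. The edgeR, DESeq2 and limma-voom fits were also run on simulated counts with known changes. The medians by step of replication, the library scores and the promoter words were not simulated. Libraries held 23603992 to 45098612 counts, and each group had 3 libraries.

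The members and lists were chosen with earlier results of these data known. All members are named by symbol. Library values are given for MCM2 to MCM7, for the 3 members with the smallest p in each step of over 6 members and for 2 in the others. From further replication genes the 4, and from mitosis genes the 2, with the smallest p are named.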

Additional observations from a re-analysis of the deposited data

How the results depend on the processing

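The median log2 fold change over all members was negative under every alternative run, but the number of genes past a threshold did not. Against 0 genes called with edgeR, DESeq2 called 1 replication gene (CDC45), the fit without a filter on low counts 4 (CDC6, MCM3, CDC45 and POLA2) and the fit with a replicate block 2 (CDC45 and DBF4). Over all genes the calls were 0 with edgeR, 159 with DESeq2, 279 without a filter, 336 with the block and 37 without both control replicate 1 and siRBM3 replicate 3. The replicate numbers 3 and 5 occur in both groups. No source used here says that they mark a shared culture or day, so they were taken as numbers only. Correlations of deviations were 0.65 and 0.09 in the 2 pairs. None was computed for libraries of unlike number, so these values do not settle whether the libraries were paired. Control replicate 1 and siRBM3 replicate 4 have no partner of the same number. The fold changes of the block fit therefore rest on the libraries numbered 3 and 5 alone. With the block, 29 replication genes and 18 further replication genes were lower at p below 0.05, without a filter 35 and 14, and without both libraries 10 and 3, against 17 and 7. The share of all genes lower at that p was 13.5% with the block and 9.93% without both, against 6.58%. Without a filter it was 4.73% of 30090 genes, a set that adds genes with few reads. Among the 15099 genes of the main fit, 1274 were lower at that p without a filter, against 993 with it. With the block all 24 mitosis genes were lower, 10 of them at p below 0.05, with a median of -0.53, against 22, 0 and -0.24. The RBM3 log2 fold change passed the thresholds at -2.14 (DESeq2), -2.13 (no filter), -2.57 (block) and -2.17 (without both). Without both, the medians moved to -0.21 for the helicase, -0.0417 for polymerases, -0.0705 for firing factors and -0.0567 for the clamp and loader. They moved to -0.0968 for lagging strand proteins, 0.0049 for nucleotide supply and -0.23 for origin recognition. The cause of these shifts was not tested.

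Scaling by library size only gave 1130 genes lower and 611 higher at p below 0.05, against 993 and 990, and an all-gene median of -0.06. At that p, 14 replication genes were lower, against 17 in the main fit. Among them were 6 of the 11 helicase and loader genes, against 9, and 2 of the 6 ring genes, against 5. The median log2 fold change was -0.41 over all members and -0.71 for the helicase and loaders.

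With each library left out in turn, 8 to 27 members and 3 to 8 further replication genes were lower at p below 0.05, 17 to 32 members were without overlap (as were 13.3% to 18.4% of all genes, against 9.93% with all libraries, since fewer libraries overlap less often), and the medians ranged from -0.53 to -0.22 over all members and from -0.27 to -0.13 in origin recognition. The 8 came without siRBM3 replicate 3 and the 27 without siRBM3 replicate 5, the 31 and 32 without overlap came without control replicate 3 and siRBM3 replicate 5, and origin recognition was at -0.13 without control replicate 3. The further replication genes numbered 3 without control replicate 5 or siRBM3 replicate 3, and 4 without siRBM3 replicate 4. The sign turned in 9 members in some of these fits, with ranges from -0.29 to 0.15 for GINS3, -0.43 to 0.0222 for PCNA, -0.21 to 0.0752 for RPA1, -0.12 to 0.0085 for ORC2, -0.28 to 0.0593 for ORC4, -0.0527 to 0.0402 for RFC1, -0.23 to 0.10 for RPA3, -0.53 to 0.19 for TICRR and -0.40 to 0.0222 for RRM2.

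With the block the sign turned for GINS3 (0.0946) and RPA1 (0.0038). Without both libraries it turned for 17 members, namely ORC1 (0.0557), GINS1 (0.14), GINS3 (0.34), TOPBP1 (0.10), TICRR (0.19), WDHD1 (0.0796), CLSPN (0.0463), POLA1 (0.053), POLE2 (0.0154), PCNA (0.14), RFC4 (0.0508), RPA1 (0.23), LIG1 (0.0306), DNA2 (0.0005), RRM1 (0.11), RRM2 (0.11) and TK1 (0.0049).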
